A study of Mus musculus with 9 samples.

Results

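The 8 genes Pdgfra, Tcf21, Thy1, Ddr2, Dpt, Postn, Fap and Meox1 mark cardiac fibroblasts or their activation, and they were followed across 9 mouse hearts. They were chosen as probe sets whose only gene symbol in the platform annotation was 1 of these names. Each gene had 1 such probe set, so 8 of the 22180 genes with a probe set of their own were described, and all 8 passed the filter on low values given below. RNA came from hearts of mice 2 months old in 3 genotypes: 3 Col4a3-/-OPN-/- hearts, 3 Col4a3-/- hearts and 3 wild type hearts. Col4a3-/- mice lack a chain of the type IV collagen of basement membranes, the defect of a hereditary kidney disorder named after Alport. The Col4a3-/-OPN-/- genotype lacks osteopontin as well, a secreted protein that binds integrins, so every heart without osteopontin also lacked Col4a3. Strain, sex and the construction of both alleles are not given in the labels. Each array held 1 heart, and the labels do not say whether hearts were collected or processed together, so p-values measure the spread between these 9 samples.

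Cardiac fibroblasts lie between the muscle fibres and make most of the interstitial collagen. In the healthy heart they carry the receptor Pdgfra and the transcription factor Tcf21, which marks the fibroblast lineage from the epicardium. After injury or pressure overload they become activated, divide, and turn on matrix genes such as Postn, the serine protease Fap and the homeobox factor Meox1. In a whole heart, fewer fibroblasts and less RNA per fibroblast cannot be told apart.

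None of the 8 genes passed the test in any comparison of genotypes. Values are log2 signals made with RMA (background correction, normalization across arrays and a summary per probe set), so a difference of 1 is a 2-fold difference, and the level of a probe set cannot be set against that of another. Differences were tested with limma over 13650 probe sets whose mean lay above 5.21, the median of all probe sets, with Benjamini-Hochberg adjustment at 0.05. For Col4a3-/- minus wild type 0 of 8 members were called, where the share over all tested probe sets was 0%. For Col4a3-/-OPN-/- minus Col4a3-/- it was 0 of 8 against 0.044% of all tested, and for Col4a3-/-OPN-/- minus wild type 0 of 8 against 0%. At an unadjusted limma p under 0.05 the members counted 1, 1 and 0 of 8 in these comparisons, against 8.35%, 13.6% and 3.68% of all tested probe sets. The gene was Meox1 both times. Each pair of comparisons shares a group of hearts, so they are not independent of each other.

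Arrays resembled each other closely apart from Col4a3-/- replicate 3. Its mean Pearson's r to the other 8 arrays was 0.943, against 0.965 to 0.977 for the others, and 26.2% of all tested probe sets were lowest in it. That heart also had high Sele, an adhesion molecule of inflamed vessels, at 8.26, and high Saa3, an acute phase protein, at 9.10, against at most 5.53 and 5.83 in the other 8 hearts. A mean of Y-linked probe sets was low, 4.53 to 4.64, in Col4a3-/-OPN-/- replicate 2 and Col4a3-/- replicates 1 and 3, against 7.0 to 7.40 in the other 6 hearts. Xist, a transcript of female cells, read 8.56 in Col4a3-/-OPN-/- replicate 2 and 7.59 and 8.50 in Col4a3-/- replicates 1 and 3. In the other 6 hearts Xist read 4.52 to 4.77. These are the patterns of female and of male hearts, though the labels give no sex. The genotypes thus hold unequal numbers of each, and all 3 wild type hearts had the male pattern. Col4a3-/- replicate 2 had high lung and brown fat markers, 12.2 for Scgb1a1 and 11.1 for Ucp1. Scgb1a1 also read 9.81 and 9.52 in Col4a3-/-OPN-/- replicates 1 and 3, against 4.54 to 6.10 in the other 6 hearts. Of 5 lung markers only 2 were tested, Scgb1a1 and Sftpb. Relative to the mean of the other 8 hearts Sftpb was at 1.85 in Col4a3-/- replicate 2 and 0.21 in Col4a3-/-OPN-/- replicate 1. In Col4a3-/-OPN-/- replicate 3 it was at -0.42, the lowest of the 9 hearts. The targeted genes gave no check of the labels: no Spp1 probe set was used here, and the dim Col4a3 probe set, 4.87 to 5.26 in Col4a3-/-OPN-/-, 4.96 to 5.27 in Col4a3-/- and 5.07 to 5.52 in wild type hearts, did not pass the filter. The part of these features in the results below was not tested, except where a value without Col4a3-/- replicate 3 or from a fit with a Y-linked covariate is given.

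**Figure D1:**
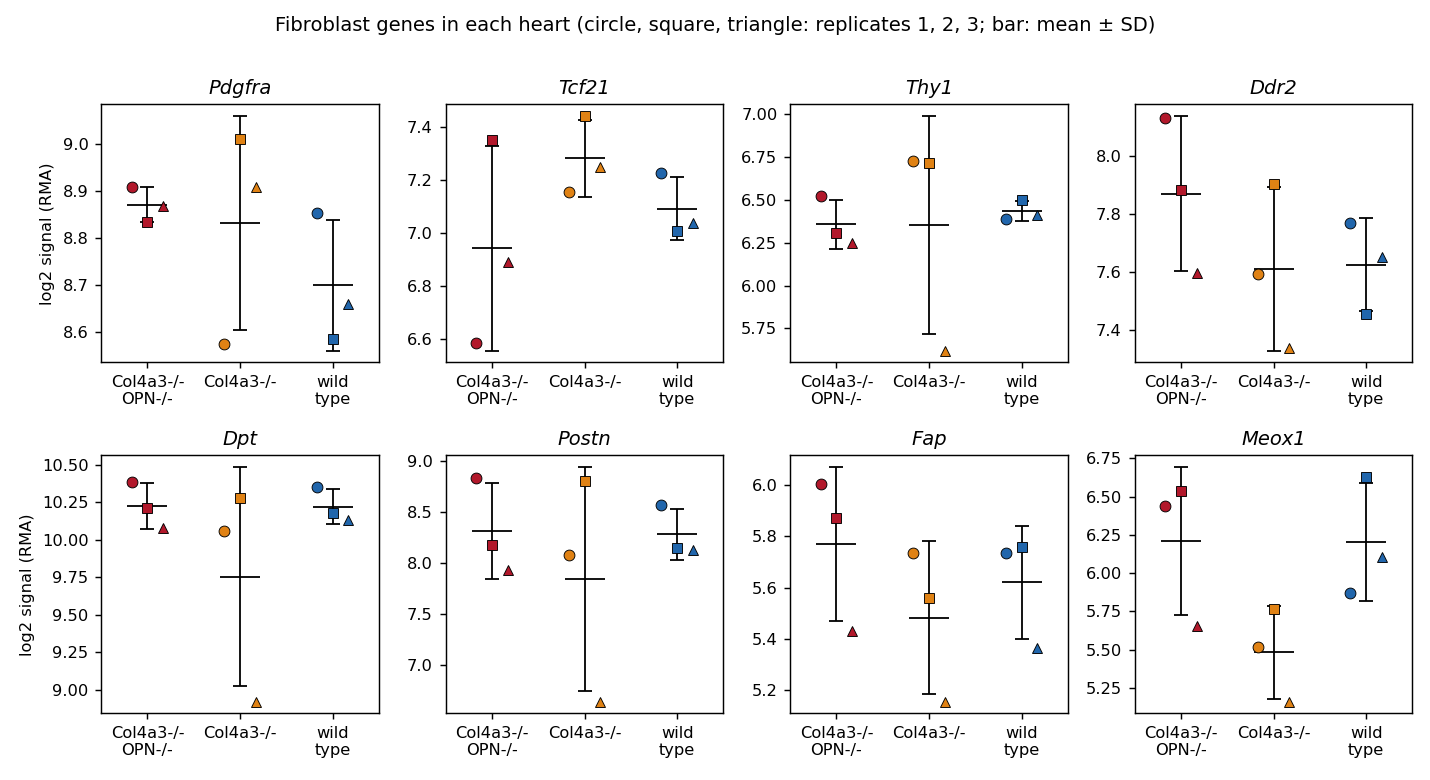
Log2 RMA signal of the 8 genes (1 panel each) in the 9 hearts, with Col4a3-/-OPN-/- left of Col4a3-/- and wild type. Circles, squares and triangles are replicates 1, 2 and 3, and bars are the mean ± SD of a group. Postn reached 6.64 in Col4a3-/- replicate 3, its lowest value, and all 3 Col4a3-/- hearts were below the wild type hearts for Meox1.

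The split among the 8 genes lay in Col4a3-/- replicate 3. Of the 8 members 6 were lowest of the 9 hearts in it (26.2% of all tested probe sets), and 5 were over 0.5 log2 below the mean of the other 8 hearts (12.2% of all tested). The difference from that mean was -1.70 for Postn, -1.29 for Dpt, -0.91 for Meox1, -0.86 for Thy1, -0.53 for Fap and -0.41 for Ddr2. Pdgfra and Tcf21 were not among the 6, with differences of 0.12 and 0.16. Over all tested probe sets, 0.249% were as far below or farther in that heart as Postn, and 0.908% as Dpt.

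**Figure D2:**
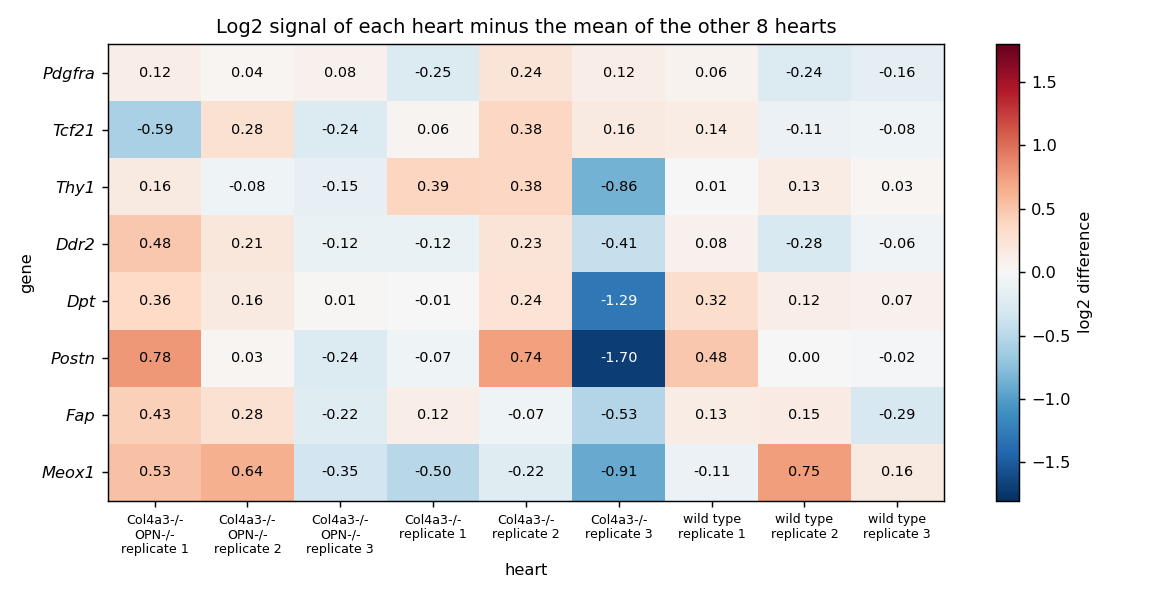
Log2 signal of each heart minus the mean of the other 8 hearts, for the 8 genes (rows) in the 9 hearts (columns), with blue for lower and red for higher. Col4a3-/- replicate 3 holds the 2 largest negative values, -1.70 for Postn and -1.29 for Dpt, beside 0.12 for Pdgfra and 0.16 for Tcf21.

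Promoters are shown for the genes at either side of this split, Postn and Dpt, which were far lower in that heart, and Pdgfra and Tcf21, which were not. Each window runs from 250 bases before the annotated start to 50 bases after it, 5′ to 3′ on the gene's strand, from RefSeq on build GRCm38.p6. RefSeq windows were at hand for 5 of the 8 members, while Thy1, Fap and Meox1 had none in the table used. The windows are chr3:54359017-54359316 (plus strand) for Postn, chr1:164796413-164796712 (plus strand) for Dpt, chr5:75152001-75152300 (plus strand) for Pdgfra and chr10:22820094-22820393 (minus strand) for Tcf21. Capitals mark matches on either strand to any of 6 searched motifs. CANNTG is the E-box read by basic helix-loop-helix factors, and CAGCTG is a form of it, so each of its matches also counts for the E-box. TAATTA is a homeodomain core, GGAATG is the TEAD motif, TGANTCA is the AP-1 motif and CAGAC is the SMAD motif, whose matches on the opposite strand appear reversed and complemented.
Postn: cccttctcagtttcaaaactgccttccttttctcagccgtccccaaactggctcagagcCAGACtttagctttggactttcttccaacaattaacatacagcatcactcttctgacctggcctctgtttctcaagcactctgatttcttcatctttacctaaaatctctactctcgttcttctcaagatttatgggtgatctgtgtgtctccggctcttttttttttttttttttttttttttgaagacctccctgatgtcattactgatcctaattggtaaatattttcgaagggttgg
Dpt: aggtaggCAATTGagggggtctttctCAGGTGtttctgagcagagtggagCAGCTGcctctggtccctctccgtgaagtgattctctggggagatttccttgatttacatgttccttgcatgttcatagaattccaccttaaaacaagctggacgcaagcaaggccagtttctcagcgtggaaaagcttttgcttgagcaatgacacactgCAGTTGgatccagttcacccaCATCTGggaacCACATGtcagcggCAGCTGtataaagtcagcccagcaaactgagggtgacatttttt
Pdgfra: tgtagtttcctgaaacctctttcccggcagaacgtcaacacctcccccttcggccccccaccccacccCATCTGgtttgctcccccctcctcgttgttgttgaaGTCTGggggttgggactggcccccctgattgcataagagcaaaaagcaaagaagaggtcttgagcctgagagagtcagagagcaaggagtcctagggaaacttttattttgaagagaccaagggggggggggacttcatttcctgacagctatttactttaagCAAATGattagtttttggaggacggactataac
Tcf21: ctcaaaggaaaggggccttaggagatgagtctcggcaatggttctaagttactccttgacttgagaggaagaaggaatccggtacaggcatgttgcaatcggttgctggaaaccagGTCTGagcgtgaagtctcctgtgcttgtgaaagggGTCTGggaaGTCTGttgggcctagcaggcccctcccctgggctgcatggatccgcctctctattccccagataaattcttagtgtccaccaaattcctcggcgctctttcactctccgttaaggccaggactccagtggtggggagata
The Dpt window held 7 CANNTG matches, of which 2 were CAGCTG, 1 of them 200 bases before the start and 1 at 6 bases after it. The Pdgfra window held 2 CANNTG and 1 CAGAC, the Tcf21 window 3 CAGAC and the Postn window 1 CAGAC. Another annotated Postn start held none of the 6 motifs, and the Ddr2 window held 1 CANNTG. Over 32851 promoter windows of the same length, 72.3% held CANNTG, 16.3% CAGCTG and 49.6% CAGAC, and the shares were 5.29% for TAATTA, 14.7% for GGAATG and 7.81% for TGANTCA, which none of the member windows held. No motif was shared by Postn and Dpt. A match describes letters in a window and shows no binding.

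Pdgfra encodes a receptor for platelet-derived growth factor AA, and its group means lay within 0.17 of each other. Its probe set (17438246) read 8.91, 8.83 and 8.87 in Col4a3-/-OPN-/-, 8.57, 9.01 and 8.91 in Col4a3-/- and 8.85, 8.58 and 8.66 in wild type hearts, always listed as replicates 1, 2 and 3. The genotypes overlapped, and the lowest and the highest of the 9 values were both in Col4a3-/- hearts. The log2 difference of Col4a3-/- minus wild type was 0.13 (SE 0.14, 95% interval -0.18 to 0.44, limma adjusted p = 0.827), that of Col4a3-/-OPN-/- minus Col4a3-/- was 0.04 (-0.27 to 0.35, limma adjusted p = 0.924), and that of Col4a3-/-OPN-/- minus wild type was 0.17 (-0.14 to 0.48). In the last of these comparisons the limma adjusted p was 0.999 for all 8 genes.

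Tcf21, a basic helix-loop-helix factor needed for the fibroblast lineage, was the only member whose mean was highest in Col4a3-/- hearts. Its probe set (17239714) read 6.58, 7.35 and 6.89 in Col4a3-/-OPN-/-, 7.15, 7.44 and 7.25 in Col4a3-/- and 7.23, 7.01 and 7.04 in wild type hearts. Col4a3-/-OPN-/- replicate 1 was the lowest heart, and the groups overlapped. The log2 difference was 0.19 (SE 0.19, -0.22 to 0.61, limma adjusted p = 0.807) for Col4a3-/- minus wild type and -0.34 (-0.76 to 0.07, limma adjusted p = 0.461) for Col4a3-/-OPN-/- minus Col4a3-/-. For Col4a3-/-OPN-/- minus wild type it was -0.15 (-0.56 to 0.26), and it turned to 0.03 without Col4a3-/-OPN-/- replicate 1.

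Thy1 encodes a surface glycoprotein of fibroblasts that T cells and neurons also carry. Its probe set (17516462) read 6.52, 6.31 and 6.25 in Col4a3-/-OPN-/-, 6.72, 6.71 and 5.62 in Col4a3-/- and 6.39, 6.50 and 6.41 in wild type hearts. Col4a3-/- replicates 1 and 2 were the 2 highest hearts and replicate 3 the lowest, so the group spanned both other groups. Over all hearts the log2 difference was -0.08 (SE 0.25, -0.64 to 0.48, limma adjusted p = 0.950) for Col4a3-/- minus wild type. Without Col4a3-/- replicate 3 it turned to 0.29 (limma adjusted p = 0.694), and Col4a3-/-OPN-/- minus Col4a3-/- was -0.36 (limma adjusted p = 0.322), against 0.00478 (-0.55 to 0.56, limma adjusted p = 0.995) with it. Col4a3-/-OPN-/- minus wild type was -0.08 (-0.63 to 0.48). Of 6 T cell markers 4 had a probe set and only Cd3e passed the filter, at 5.23 to 5.39 in Col4a3-/-OPN-/-, 5.32 to 5.45 in Col4a3-/- and 5.51 to 5.64 in wild type hearts. Of 7 neuron and Schwann cell markers, 5 had a probe set and 2, Tubb3 and Sox10, passed the filter, with log2 differences of 0.07 each for Col4a3-/- minus wild type. The part of such cells in the Thy1 values was not tested.

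Ddr2 and Dpt act at the contact with collagen. Ddr2, the discoidin domain receptor that binds fibrillar collagen, had a probe set (17229481) at 8.13, 7.88 and 7.59 in Col4a3-/-OPN-/-, 7.59, 7.90 and 7.34 in Col4a3-/- and 7.77, 7.45 and 7.65 in wild type hearts. Its groups overlapped, with log2 differences of -0.01 (SE 0.18, -0.42 to 0.39, limma adjusted p = 0.988) for Col4a3-/- minus wild type and 0.26 (-0.15 to 0.67, limma adjusted p = 0.572) for Col4a3-/-OPN-/- minus Col4a3-/-. Col4a3-/-OPN-/- minus wild type was 0.25 (-0.16 to 0.65). Dpt encodes dermatopontin, a small matrix protein that binds decorin and marks fibroblasts of many organs. Its probe set (17218927) read 10.38, 10.21 and 10.08 in Col4a3-/-OPN-/-, 10.06, 10.28 and 8.92 in Col4a3-/- and 10.35, 10.18 and 10.13 in wild type hearts. The other 8 hearts lay within 10.06 to 10.38, and only Col4a3-/- replicate 3 lay outside. The log2 difference was -0.47 (SE 0.28, -1.08 to 0.15, limma adjusted p = 0.673) for Col4a3-/- minus wild type and 0.47 (-0.15 to 1.09, limma adjusted p = 0.495) for Col4a3-/-OPN-/- minus Col4a3-/-. Both were near 0, at -0.05 and 0.05, without Col4a3-/- replicate 3. Means of Col4a3-/-OPN-/- and wild type hearts were 10.22 ± 0.15 and 10.22 ± 0.12 (SD, n = 3 each), with a 95% interval of the difference from -0.61 to 0.62.

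Postn, a widely used marker of activated cardiac fibroblasts, encodes periostin, a matrix protein that binds integrins and promotes collagen assembly. Its probe set (17397575) read 8.84, 8.18 and 7.93 in Col4a3-/-OPN-/-, 8.08, 8.80 and 6.64 in Col4a3-/- and 8.57, 8.14 and 8.13 in wild type hearts. Col4a3-/-OPN-/- replicate 1 and Col4a3-/- replicate 2 were the highest hearts while Col4a3-/- replicate 3 was far below all others, so the groups overlapped. Group means were 8.31 ± 0.47 in Col4a3-/-OPN-/-, 7.84 ± 1.1 in Col4a3-/- and 8.28 ± 0.25 in wild type hearts (SD, n = 3 each). The log2 difference was -0.44 (SE 0.44, -1.42 to 0.53, limma adjusted p = 0.814) for Col4a3-/- minus wild type, and 0.47 (-0.50 to 1.45, limma adjusted p = 0.664) for Col4a3-/-OPN-/- minus Col4a3-/-. Without Col4a3-/- replicate 3 both signs turned, to 0.16 and -0.13. With a Y-linked covariate the difference of Col4a3-/- minus wild type was 0.15. Col4a3-/-OPN-/- minus wild type was 0.03 (-0.95 to 1.01).

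Fap, a surface protease of activated fibroblasts that cleaves collagen fragments, was near the filter. Its probe set (17385767) read 6.01, 5.87 and 5.43 in Col4a3-/-OPN-/-, 5.73, 5.56 and 5.15 in Col4a3-/- and 5.74, 5.76 and 5.37 in wild type hearts. Replicate 3 was the lowest heart within each genotype, as it was for Postn and Dpt, and the groups overlapped. The log2 difference was -0.14 (SE 0.19, -0.55 to 0.28, limma adjusted p = 0.866) for Col4a3-/- minus wild type, 0.29 (-0.13 to 0.70, limma adjusted p = 0.537) for Col4a3-/-OPN-/- minus Col4a3-/- and 0.15 (-0.26 to 0.56) for Col4a3-/-OPN-/- minus wild type. The first of these turned to 0.03 without Col4a3-/- replicate 3.

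Meox1 had the largest difference of the 8 genes between Col4a3-/- and wild type hearts. It encodes a homeobox transcription factor that is induced in stressed fibroblasts and drives their activation. Its probe set (17269974) read 6.44, 6.54 and 5.66 in Col4a3-/-OPN-/-, 5.52, 5.77 and 5.16 in Col4a3-/- and 5.87, 6.63 and 6.11 in wild type hearts. Every Col4a3-/- heart was below every wild type heart, while Col4a3-/-OPN-/- replicate 3 lay within the Col4a3-/- range and the other two Col4a3-/-OPN-/- hearts were within the wild type range. Group means were 6.21 ± 0.48 in Col4a3-/-OPN-/-, 5.48 ± 0.31 in Col4a3-/- and 6.20 ± 0.39 in wild type hearts (SD, n = 3 each).

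The log2 difference of Meox1 was -0.72 for Col4a3-/- minus wild type, a ratio of 0.607 (SE 0.26, 95% interval -1.29 to -0.15, limma adjusted p = 0.506). It was 0.73 for Col4a3-/-OPN-/- minus Col4a3-/-, a ratio of 1.66 (0.16 to 1.30, limma adjusted p = 0.292). Col4a3-/-OPN-/- minus wild type was 0.01 (-0.56 to 0.58). Meox1 was the only 1 of 8 members whose Col4a3-/- and wild type hearts did not overlap, against 12.5% of all tested probe sets in either direction and 7.9% in the lower one. No member was without overlap in the other two comparisons, against 16.5% of all tested for Col4a3-/-OPN-/- minus Col4a3-/- and 13.2% for Col4a3-/-OPN-/- minus wild type. Without Col4a3-/- replicate 3 the Meox1 differences were -0.56 (limma adjusted p = 0.703) and 0.57 (limma adjusted p = 0.425), and with the Y-linked covariate -0.77 and 0.76.

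Markers of smooth muscle and pericytes and of atrial cardiomyocytes had mostly negative differences in Col4a3-/- minus wild type too, with 0 of them called. Of 9 smooth muscle and pericyte markers, 8 had a negative difference from wild type (median -0.79), against 55% of all tested probe sets. Of the 9 markers 6 were lower without overlap, against 7.9% of all tested. At an unadjusted limma p under 0.05, 6 were lower, against 5.96% of all tested. Their mean log2 signal was 8.61 to 8.63 in Col4a3-/-OPN-/-, 7.78 to 8.17 in Col4a3-/- and 8.59 to 8.63 in wild type hearts. Of 6 atrial cardiomyocyte markers all 6 were negative (median -0.88) and lower at an unadjusted limma p under 0.05, and 4 were lower without overlap. Their mean log2 signal was 9.97 to 10.12 in Col4a3-/-OPN-/-, 8.70 to 9.99 in Col4a3-/- and 10.21 to 10.41 in wild type hearts. Of 6 epicardial and mesothelial markers 4 were negative (median -0.24), against 55% of all tested, led by Upk3b at -0.92, and 0 were called. Their median difference from the wild type mean was -0.64 in Col4a3-/- replicate 1, 0.08 in replicate 2 and -0.10 in replicate 3. Of these markers 1 was lower at an unadjusted limma p under 0.05, and 0 were without overlap. Their mean log2 signal was 6.42 to 6.60 in Col4a3-/-OPN-/-, 5.97 to 6.61 in Col4a3-/- and 6.37 to 6.66 in wild type hearts. Every marker of these 3 lists passed the filter. The median over 8 general cardiomyocyte markers was -0.04 (6 negative), and over 7 endothelial markers -0.08 (5 negative), with 0 called in either list. Of the endothelial markers 2 were lower at an unadjusted limma p under 0.05 and 1 was lower without overlap, with Kdr lowest at -0.76. Of the general cardiomyocyte markers 0 were lower at that threshold and 1 was lower without overlap. The part of these cells in the Meox1 difference was not tested.

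**Figure D3:**
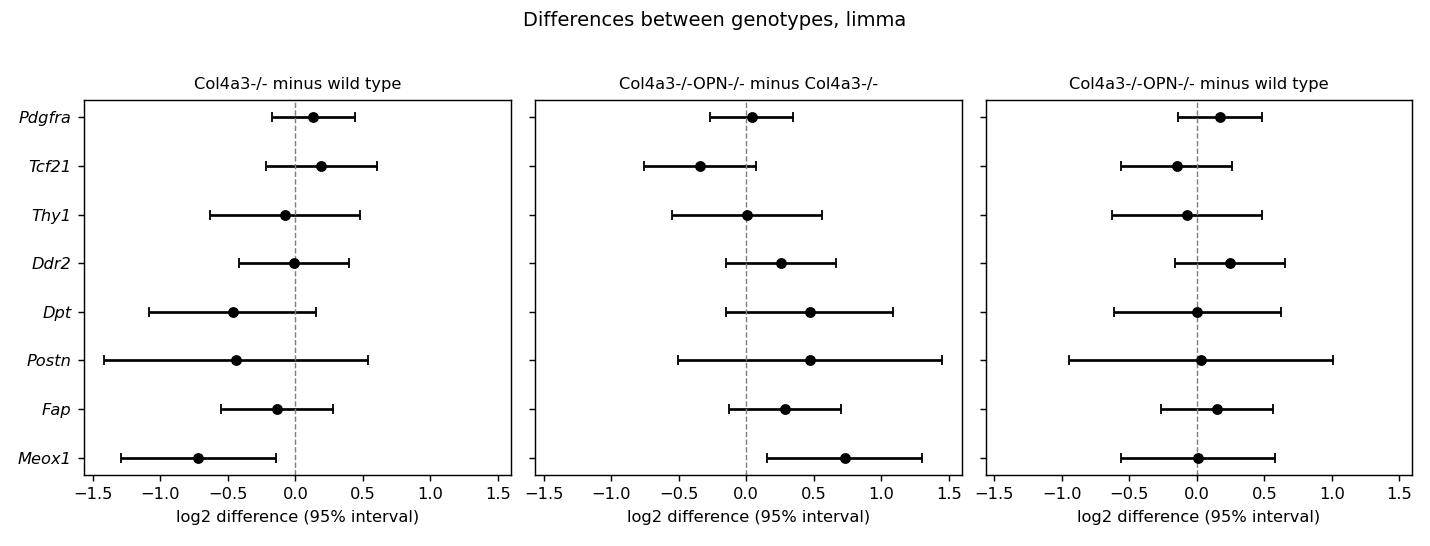
Log2 difference of each of the 8 genes (rows) in the 3 comparisons, with 95% intervals from limma over all 9 hearts. The Meox1 intervals, -1.29 to -0.15 for Col4a3-/- minus wild type and 0.16 to 1.30 for Col4a3-/-OPN-/- minus Col4a3-/-, leave out 0 before adjustment, and every other interval contains 0.

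Postn and Dpt followed each other from heart to heart. Over the 9 hearts Pearson's r was 0.952 (exact permutation p = 3.28e-04, adjusted 0.00918 over the 28 pairs of members) and Spearman's rho was 0.967 (exact permutation p = 1.65e-04, adjusted 0.00463). Without the 2 hearts farthest from the median of Dpt, Col4a3-/- replicate 3 and Col4a3-/-OPN-/- replicate 1, r was 0.854, and without Col4a3-/- replicate 3 alone it was 0.904. Of deviations from the genotype means it was 0.964. Within each genotype replicate 3 was the lowest heart for both genes. The permutation shuffled all 9 hearts without regard to genotype or replicate number. Dpt ranked 28th among 13649 other tested probe sets by likeness to Postn.

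**Figure D4:**
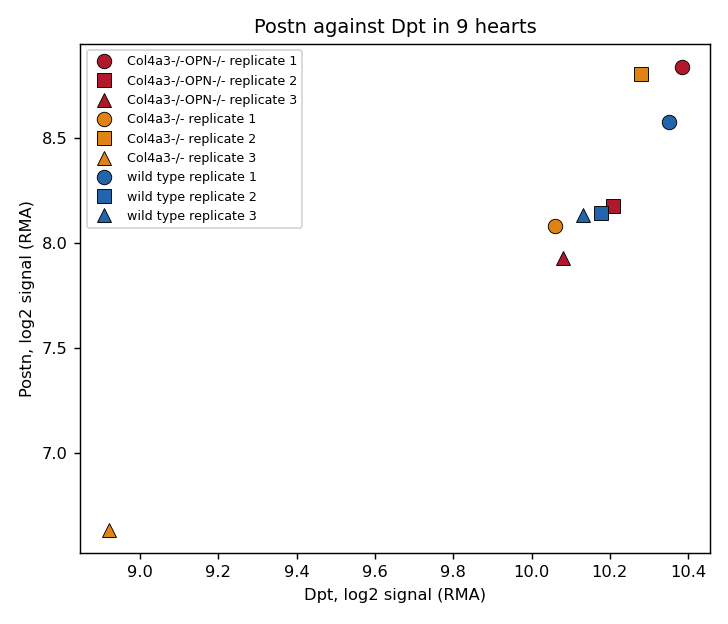
Log2 signal of Postn (vertical) against Dpt (horizontal), 1 point per heart, with genotypes by colour. Col4a3-/- replicate 3 lies apart at 8.92 for Dpt and 6.64 for Postn, and the other 8 hearts keep an r of 0.904.

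No other pair of members passed the adjustment. Ddr2 and Postn had r = 0.812 (exact permutation p = 0.00680, adjusted 0.0810), rho = 0.867 (exact permutation p = 0.00451, adjusted 0.0567), r = 0.670 without Col4a3-/-OPN-/- replicate 1 and Col4a3-/- replicate 3, and r = 0.796 without Col4a3-/- replicate 3 alone. Thy1 and Dpt had r = 0.847 (exact permutation p = 0.0486, adjusted 0.136) and rho = 0.317 (exact permutation p = 0.410, adjusted 0.704), with r = 0.495 without Col4a3-/- replicates 1 and 3 and r = 0.0652 without replicate 3 alone, so that relation rests on this heart. Pdgfra and Tcf21 ranged from -0.317 to 0.450 in r with the other members. Without Col4a3-/- replicate 3, Pdgfra had r = 0.659 with Postn and 0.620 with Dpt, against 0.0918 and -0.101 with it. Of the 28 pairs, 18 had r above 0 over 9 hearts and 20 without that heart.

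The genes closest to the mean of the 8 members were collagen genes and an actin regulator. Deviations were averaged without scaling, so members with a wide spread, such as Postn and Dpt, weigh most in that mean. Pdgfra and Tcf21 had r of 0.0918 and -0.187 with Postn. By Pearson's r with the mean of the members over 9 hearts that share 1 normalization, the 3 closest of all tested were Daam1, a formin that organises actin (r = 0.994), and Col6a1 and Col6a2, chains of type VI collagen (0.993 and 0.987). The same r were 0.982, 0.980 and 0.954 without Col4a3-/- replicate 3. Col6a1 read 8.68, 8.56 and 8.0 in Col4a3-/-OPN-/-, 8.16, 8.74 and 6.77 in Col4a3-/- and 8.57, 8.37 and 8.12 in wild type hearts, lowest in the same heart as Postn and Dpt.

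Single members had different closest genes. For Postn they were Unc93b1 (r = 0.990), Grb10 (0.985) and Pcolce (0.983), an enhancer of procollagen cleavage, and for Dpt they were Hacd4 (0.989), Wsb2 (0.987) and the cadherin Cdh2 (0.986). For Meox1 they were the phosphodiesterase Pde1c (0.971, and 0.961 without Col4a3-/- replicate 3), Phtf1 (0.949) and Ppm1j (0.945). Pdgfra was closest to Camkk2 (0.942), Dgcr2 (0.936) and Syne1 (0.936), and Tcf21 to Rnu11 (0.928), Ywhag (0.926) and Mir467c (0.924). Ddr2 was closest to Cog7 (0.971), Bace1 (0.965) and 2610507B11Rik (0.964), Fap to Cacnb2 (0.965), Rngtt (0.964) and Arpin (0.949), and Thy1 to Crls1 (0.955), Sin3b (0.951) and Tmem30a (0.943). The r of these 3 genes with Thy1 without Col4a3-/- replicate 3 was 0.816 to 0.840. Without the same heart Hacd4, Wsb2 and Cdh2 had r of 0.883, 0.954 and 0.843 with Dpt. They then ranked 68, 4 and 136 by likeness to Dpt.

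Other fibroblast identity genes were also low in Col4a3-/- replicate 3. Of 24 listed genes 22 were tested and 0 were called by limma in any comparison. In Col4a3-/- minus wild type 20 of 22 differences were negative, with a median of -0.27, against -0.02 over all tested probe sets, of which 55% were negative; 4 of the 22 were lower at an unadjusted limma p under 0.05, against 5.96% of all tested. In Col4a3-/-OPN-/- minus Col4a3-/- 20 of 22 were positive, with a median of 0.34, against 0.04 over all tested, of which 57.7% were positive, and 3 were higher at an unadjusted limma p under 0.05, against 8.58% of all tested. Without Col4a3-/- replicate 3 the counts were 11 negative and 11 positive (median -0.00181) and 14 positive (median 0.08). In Col4a3-/-OPN-/- minus wild type 10 of 22 were positive (median -0.00458), against 53.1% of all tested, with 1 higher and 1 lower at an unadjusted limma p under 0.05.

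In Col4a3-/- replicate 3, 20 of these 22 genes were below the mean of the other 8 hearts, with a median of -0.77. Medians in that heart were -0.86 over smooth muscle and pericyte markers, -0.81 over atrial markers, -0.15 over general cardiomyocyte markers and 0.02 over endothelial markers, and the part of such cells was not tested. Fibrillar collagens were among the 20 genes, and Col3a1 read 6.39 there, against 7.86 to 9.96 elsewhere, Col1a1 6.50 against 8.07 to 9.61, and Col1a2 6.53 against 8.04 to 9.02. The proteoglycans differed, with Lum (lumican) at 6.72 against 8.09 to 8.99 and Dcn (decorin) at 12.04, the highest of the 9 hearts, against 11.60 to 11.98. The lowest differences of Col4a3-/- minus wild type were -1.20 for Islr (limma adjusted p = 0.505), which marks stromal cells, and -0.90 for the microfibril protein Mfap4 (limma adjusted p = 0.406), and the highest were 0.14 for Medag and 0.01 for Dcn. Without that heart Islr was at -0.64 and Mfap4 at -0.63. In Col4a3-/-OPN-/- minus Col4a3-/- the highest were 1.07 for Islr and 0.84 for Fbln2, a fibulin of the matrix (limma adjusted p = 0.316 and 0.141), and the lowest were -0.19 for Medag and -0.02 for Dcn. Islr was at 0.51 and Fbln2 at 0.70 in this comparison when Col4a3-/- replicate 3 was left out.

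Other activation and myofibroblast genes did not move as 1 group. Of 33 listed genes 30 had a probe set and 28 were tested. In Col4a3-/- minus wild type limma called 0, with 4 of 28 lower at an unadjusted p under 0.05, against 5.96% of all tested probe sets, and 18 of 28 were negative (median -0.12), against 55% of all. The median was -0.06 without Col4a3-/- replicate 3, -0.19 without replicate 2, -0.03 without replicate 1 (13 positive and 15 negative), -0.24 without wild type replicate 3 and -0.05 without wild type replicate 1. The lowest were Acta2, the actin of smooth muscle and myofibroblasts, at -1.02, and Comp, a cartilage matrix protein, at -0.85 (limma adjusted p = 0.406 and 0.398). The highest were the collagen crosslinker Lox at 0.98 and the protease inhibitor Timp1 at 0.78 (limma adjusted p = 0.700 and 0.626). Lox read 9.04 in Col4a3-/- replicate 3 and 6.03 in replicate 1, and its difference without replicate 3 was 0.29. Timp1 was at 0.31 without Col4a3-/- replicate 2.

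Cilp was the only gene of these lists to pass the test. It encodes a matrix protein that activated cardiac fibroblasts secrete. It read 6.57, 6.95 and 6.97 in Col4a3-/-OPN-/-, 5.87, 5.56 and 5.42 in Col4a3-/- and 6.30, 6.12 and 5.87 in wild type hearts. Every Col4a3-/-OPN-/- heart was above every heart of both other genotypes. Cilp rose by 1.21 in Col4a3-/-OPN-/- relative to Col4a3-/- hearts (limma adjusted p = 0.0482), and its difference from wild type was -0.48 in Col4a3-/- and 0.73 in Col4a3-/-OPN-/- hearts (limma adjusted p = 0.505 and 0.999). Over the 18 alternative settings that tested it (a stricter filter removed it) the difference ranged from 1.12 to 1.35 and the limma adjusted p from 0.0329 to 0.163. It passed the test in 3 of them, with centred arrays, with robust moderation and without Col4a3-/- replicate 1. It did not pass with the replicate number as a block (limma adjusted p = 0.0895) or with a Y-linked covariate (limma adjusted p = 0.143). Smooth muscle markers, given above with Meox1, all had positive differences in this comparison as well (9 of 9, median 0.60, 1 called). Over all tested probe sets 57.7% were positive and 0.044% were called. The part of smooth muscle in the Cilp difference was not tested. The other genes of the activation list had 18 positive and 9 negative differences in this comparison, beside the same 57.7% positive over all tested. They were led by Itgbl1 at 0.61, and the lowest were Lox at -0.80 and Timp1 at -0.48. Lox was at -0.10 without Col4a3-/- replicate 3, and Timp1 at -0.01 without Col4a3-/- replicate 2. In Col4a3-/-OPN-/- minus wild type 15 of the 28 genes were positive, with a median of 0.05, against 53.1% of all tested. Limma called 0 of them, against 0% of all tested. At an unadjusted limma p under 0.05, 1 was higher and 1 lower, against 3.68% of all tested in either direction.

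Partners and relatives of the members gave 0 calls among 21 tested genes. In Col4a3-/- minus wild type 15 of 21 were negative (median -0.07), against 55% of all tested probe sets, and 3 were lower at an unadjusted limma p under 0.05, against 5.96%. In Col4a3-/-OPN-/- minus Col4a3-/- 16 of 21 were positive (median 0.15), against 57.7% of all, and 5 were higher at that threshold, against 8.58%. Positive differences of Col4a3-/-OPN-/- minus wild type numbered 17 of 21 (median 0.11), against 53.1% of all, and 0 passed that threshold, against 3.68% in either direction. Pdgfd, a ligand of the PDGF receptors, read 7.39, 7.60 and 7.49 in Col4a3-/-OPN-/-, 6.73, 6.93 and 6.95 in Col4a3-/- and 7.19, 7.29 and 7.57 in wild type hearts. All Col4a3-/- hearts were below all others, with a log2 difference of -0.48 from wild type and one of 0.62 for Col4a3-/-OPN-/- minus Col4a3-/- (limma adjusted p = 0.460 and 0.156). Pdgfrb, the sister receptor of Pdgfra on pericytes and fibroblasts, read 8.94, 8.94 and 8.52 in Col4a3-/-OPN-/-, 8.14, 8.12 and 8.46 in Col4a3-/- and 8.64, 8.55 and 8.62 in wild type hearts, also without overlap in both comparisons (-0.36 and 0.55, limma adjusted p = 0.570 and 0.200). Unlike Postn and Dpt, Pdgfd and Pdgfrb were not lowest in Col4a3-/- replicate 3.

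Dpp4, the protease closest to Fap, had the lowest difference from wild type of the partner list in Col4a3-/- hearts, at -0.52, and the highest for Col4a3-/-OPN-/- minus Col4a3-/-, at 0.63 (limma adjusted p = 0.506 and 0.234). It read 6.29, 6.54 and 6.29 in Col4a3-/-OPN-/-, 5.62, 6.20 and 5.40 in Col4a3-/- and 6.15, 6.35 and 6.29 in wild type hearts, and Col4a3-/- replicate 2 overlapped with wild type. The highest differences of Col4a3-/- minus wild type were 0.44 for the integrin Itgb3 and 0.29 for Tcf3, a partner of Tcf21. In Col4a3-/-OPN-/- minus Col4a3-/- the lowest were -0.21 for Pdgfa and -0.16 for Itgb3. When Col4a3-/- replicate 3 was left out, Itgb3 was at 0.12 for Col4a3-/- minus wild type and its sign turned, to 0.16, for Col4a3-/-OPN-/- minus Col4a3-/-. Meox2, the paralogue of Meox1, was at -0.27 for Col4a3-/- minus wild type and 0.29 for Col4a3-/-OPN-/- minus Col4a3-/- (limma adjusted p = 0.816 and 0.665), with overlapping groups.

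**Figure D5:**
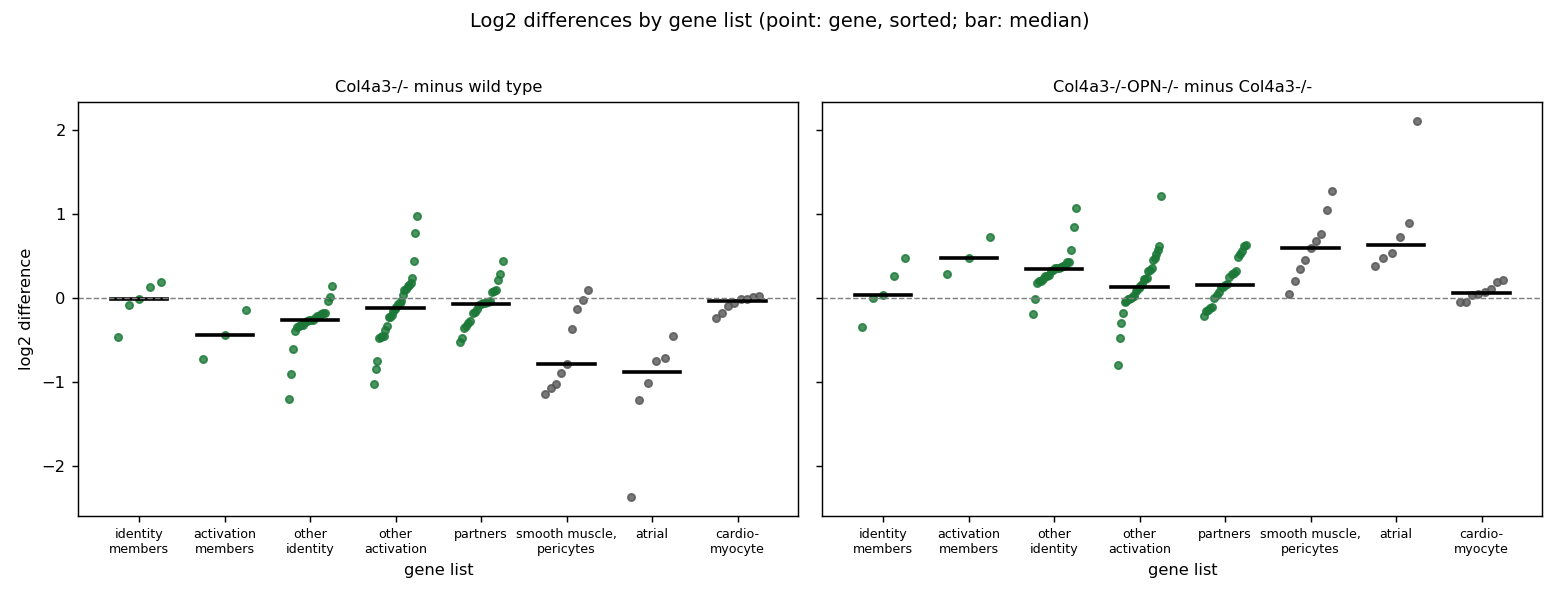
Log2 differences of Col4a3-/- minus wild type (left) and Col4a3-/-OPN-/- minus Col4a3-/- (right) by gene list, with a point per gene in rising order. Bars are medians. Points are green for the member, other identity, other activation and partner lists, and grey for markers of other cell types. Medians of the other identity genes were -0.27 and 0.34, beside -0.79 and 0.60 for smooth muscle and pericyte markers and -0.04 and 0.06 for cardiomyocyte markers.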

How the data were processed

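Total RNA of snap-frozen hearts was used, per the labels' protocols. The authors deposited log2 signals from RMA, per the submitters' processing notes, and its software version is not given in the sources used here. A small RNA kit stands in the labels as the labelling reagent, although the probe sets belong to a mouse gene array, so the labelling step is uncertain. RMA gives no detection call, and the number of arrays limits the precision.

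Of 33793 probe sets, 23521 had 1 gene symbol in the platform annotation, 1814 had several and 8458 were not listed. Only the first kind was named, with symbols updated by gene identifier (23328 matched) through a RefSeq table of GRCm38.p6. Of these, the 13650 with a mean log2 signal above 5.21 were tested. A single limma fit (version 3.58.1, R 4.3.3; lmFit, then eBayes with its trend option) covered all 9 arrays, with two-sided p-values and Benjamini-Hochberg adjustment over all tested probe sets. Standard errors of log2 differences had a median of 0.15. With 3 hearts a group the smallest exact permutation p is 0.1, so no such test was run on single genes. Correlations used exact two-sided permutation over the 9 hearts. The fit was also run on simulated data with 200 of 13650 probe sets changed between Col4a3-/- and wild type arrays. It recovered 16%, 94%, 100% and 100% of changes of 0.5, 1, 2 and 3 log2 units, with 7 false among 162 calls. The simulated noise was independent and equally wide in every heart, so it held no outlying heart such as Col4a3-/- replicate 3. Members had standard errors of up to 0.44 (Postn). The shares recovered therefore do not say which changes would be found for the members in these hearts.

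Members and gene lists were chosen with earlier results of these data known. The rule for named genes took all members, the 3 probe sets most like each member and like their mean, and the 2 highest and 2 lowest of each other list. Sele, Saa3, Xist, Scgb1a1, Sftpb, Ucp1, Col1a1, Col1a2, Col3a1, Lum, Pdgfrb and Meox2 fall outside it and were chosen after their values were seen. The labels give no pairing by replicate number. Over all tested probe sets, deviations of same-numbered hearts from their genotype means correlated at -0.19 to 0.23. For replicate 3 the correlations were 0.06, 0.14 and 0.23, and replicate 3 was the lowest heart of each genotype for Postn, Dpt and Fap. For the other members the lowest wild type heart was replicate 1 or 2. Postn in wild type replicates 2 and 3 was close, at 8.144 and 8.131. The share of all tested probe sets with replicate 3 lowest in each genotype was not counted. The part of the replicate number in these values was not tested beyond the fit with a block, given below.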

Additional observations from a re-analysis of the deposited data

How the results depend on the processing

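Each comparison was repeated under 19 alternatives: renewed quantile normalization, centred arrays, no filter, a filter 1 log2 unit stricter, no intensity trend, robust moderation, a fit limited to both groups of a comparison, array weights, a block for the replicate number, a Y-linked covariate, and each of the 9 hearts left out. The number of members called stayed at 0 in all 57 of these. The stricter filter left 6 members to test, without Fap and Meox1. Meox1 ranged from -0.89 to -0.51 for Col4a3-/- minus wild type (limma adjusted p 0.297 to 0.951) and from 0.57 to 1.01 for Col4a3-/-OPN-/- minus Col4a3-/- (limma adjusted p 0.187 to 0.610), with no change of sign in the 18 alternatives that tested it. The numbers share no known pairing, and the fit with the replicate number as a block called 0 members in each comparison; it gave Meox1 -0.72 (limma adjusted p = 0.441) and 0.73 (limma adjusted p = 0.215), and over all tested probe sets it called 0 for Col4a3-/-OPN-/- minus Col4a3-/-, against 6 without it. The same comparison gave 0 to 22 calls over all alternatives. In 7 of 18 matches a heart correlated best with the heart of its own number. Each match was chosen among the 3 hearts of another genotype, of which 1 had that number. For Col4a3-/- minus wild type the sign of Ddr2 turned in 5 alternatives, that of Thy1 in 3, of Postn in 2 and of Fap in 1. Leaving out each heart was added after seeing the data for the gene lists: the median of other identity genes in Col4a3-/- minus wild type ranged from -0.41 to -0.00181, and that of other activation genes in Col4a3-/-OPN-/- minus Col4a3-/- ranged from 0.0018 without Col4a3-/-OPN-/- replicate 1 (14 positive and 14 negative) to 0.34 without Col4a3-/- replicate 2, and was 0.05 without Col4a3-/- replicate 3. The partner list's medians ranged from -0.17 (without Col4a3-/- replicate 2) to -0.03 (without Col4a3-/- replicate 1) for Col4a3-/- minus wild type, and from 0.09 (without Col4a3-/-OPN-/- replicate 1) to 0.22 (without Col4a3-/- replicate 2) for Col4a3-/-OPN-/- minus Col4a3-/-. Cilp, also examined under the other alternatives after seeing the data, lost its call in 15 of 18, the block and the Y-linked covariate among them. Scalings moved the median of all tested probe sets by less than 0.1.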
